A study of Mus musculus with 7 samples.

Results

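The protein genes of the cytosolic ribosome were followed in small RNA libraries made from heart mitochondria of mice with and without Tefm. They were chosen by name alone, as protein-coding features named Rpl or Rps with a number and at most a closing a, x or y, together with Rplp0, Rplp1, Rplp2 and Rpsa. The rule took 76 of 49584 features, 46 of the large and 30 of the small subunit. Rps6 kinases were left out, and ribosomal proteins named otherwise, such as Fau, Rps3a1 and the muscle paralog Rpl3l, fell outside the name rule.

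Tefm encodes the elongation factor of mitochondrial transcription. Mice of both groups were L/L, with a Tefm exon flanked by loxP sites on their alleles. The 3 control libraries (L/L, genotype Tefm +/+ in the labels) were compared with 4 knockout libraries (L/L, cre; Tefm -/-), in which cre was expressed from the muscle creatine kinase promoter and so acts in muscle cells, while other cells of the heart are not its target. RNA came from crude mitochondria, so RNA of the cytosol that copurifies can be part of the sample, and a small RNA kit takes up pieces of mRNA rather than whole mRNA. Age was not given in the sources used here, and each library was taken as 1 mouse because the design text counts mice.

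Cytosolic ribosomes translate nuclear mRNAs, including those of nearly all mitochondrial proteins. Their proteins are imported into the nucleolus and built onto ribosomal RNA there, and a cell needs them in balanced amounts. Many of their genes also carry small nucleolar RNAs (snoRNAs) in their introns, which are trimmed out of the spliced intron and guide chemical modification of ribosomal RNA, so a gene of this family can yield a short stable RNA and an mRNA from the same transcript.

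Total counts ran from 973835 to 2570739 per library. The mix of RNA classes differed widely within both groups: small RNA counts (microRNAs plus snoRNAs), as a log2 ratio over nuclear protein-coding counts, lay between -1.35 and 2.88 in controls and between -2.44 and 3.11 in knockouts. Tefm itself had 0, 2 and 1 counts in controls and 0, 1, 0 and 2 in knockouts, so the genotype labels could not be checked with it. All 8 cardiomyocyte markers were found. Their summed level was 3076 to 4141 normalised counts (CPM, scaled by edgeR's TMM factors) in controls and 1488 to 2145 in knockouts. The 5 markers each of erythroid, white blood, endothelial and fibroblast cells and the 3 of smooth muscle all had counts. White blood cell markers summed to 25.2 to 37.6 CPM in controls and 11.9 to 22.1 in knockouts, so they too were lower in every knockout. The other lists overlapped between controls and knockouts, with 11.4 to 19.2 and 5.02 to 18.3 CPM for erythroid, 78.5 to 149.8 and 31.1 to 83.9 for endothelial, 234 to 399.5 and 194 to 622 for fibroblast, and 17.1 to 20.001 and 5.02 to 17.7 for smooth muscle markers.

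The 76 genes drew 2632 of 624930 nuclear protein-coding counts over the 7 libraries, and 1 gene, Rpl7a, held 1739 of them. Of the 76, 58 had at least 1 count, 41 at least 5 and 13 at least 20. Among all 21960 nuclear protein-coding genes, 9431 had at least 5. The 18 at 0 were Rpl10a, Rpl12, Rpl13a, Rpl17, Rpl19, Rpl23, Rpl24, Rpl29, Rpl35, Rpl35a, Rpl36, Rpl37, Rps13, Rps16, Rps23, Rps27, Rps28 and Rps29. For each, 0 counts allows up to 3 of 624930 nuclear protein-coding counts, a share of up to 0.00048%, as counting error alone.

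Rpl7a (ENSMUSG00000062647.16) encodes a large subunit protein and lies at chr2:26910764-26913318 on the plus strand (GRCm38). The snoRNAs inside this gene are shown because its counts moved with snoRNA counts. The first 3 are GENCODE M21 transcripts. The fourth has a RefSeq position (GRCm38.p6), with its letters taken from a GENCODE M21 transcript. Capitals mark the first TGATG, which holds the core of box C, and the last CTGA, which is box D. These are the short motifs at either end of a C/D-box snoRNA, and only the strand of the RNA was searched. Of the 454 GENCODE M21 snoRNA transcripts of 60 to 100 bases, 366 (80.6%) hold both.
Gm23969 (chr2:26911261-26911334, plus): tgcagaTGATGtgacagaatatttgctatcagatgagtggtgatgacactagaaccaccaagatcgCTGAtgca
Gm22879 (chr2:26912218-26912291, plus): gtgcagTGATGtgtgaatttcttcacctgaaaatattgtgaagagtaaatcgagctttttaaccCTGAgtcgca
Gm24134 (chr2:26912530-26912600, plus): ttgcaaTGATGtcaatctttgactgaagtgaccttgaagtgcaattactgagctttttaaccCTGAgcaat
LOC115489588 (chr2:26912848-26912915, plus): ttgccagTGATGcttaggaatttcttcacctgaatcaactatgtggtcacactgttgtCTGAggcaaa

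Gm23969 lies between the annotated exons of Rpl7a and had 1285, 141 and 217 counts in controls and 149, 997, 167 and 81 in knockouts. Gm22879 and Gm24134 lie inside exons of non-coding Rpl7a transcripts, and both had 0 counts in all 7 libraries. How reads over more than 1 feature were counted was not stated, so a 0 there does not show that the snoRNA was absent. LOC115489588 lies in such an exon too and had no feature of its own in the deposited tables. None of the 4 overlaps an exon of the single protein-coding transcript, while 6 further transcripts of the gene are annotated as non-coding.

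**Figure D1:**
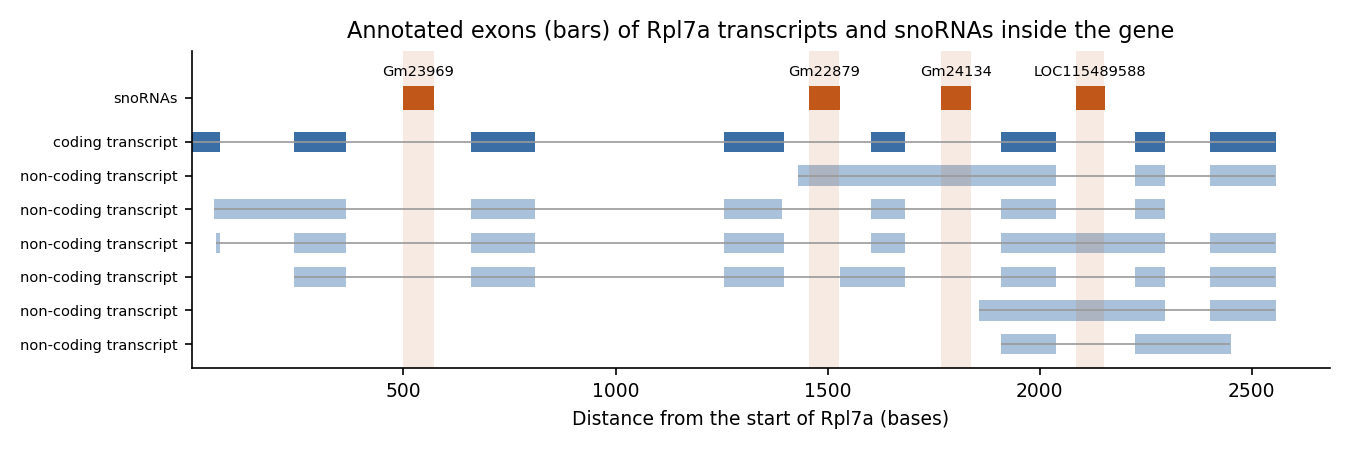
Map of Rpl7a to scale, with the distance in bases from the start of the gene on the horizontal axis. Dark bars are exons of the 1 protein-coding transcript, light bars exons of the 6 non-coding ones and orange bars the 4 snoRNAs; Gm23969 is the one that touches no exon.

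Rpl7a drew the most counts of the family. They were 438, 39 and 57 in controls and 104, 873, 150 and 78 in knockouts, which was between 17.9% and 90.3% of all ribosomal protein counts of a library. As CPM, it stood at 441, 15.3 and 39.0 in controls and at 159, 876, 99.1 and 24.6 in knockouts. Control 1 and knockout 2 were the highest of their groups, and the groups overlapped over most of their range. The log2 fold change, knockout against control, was 0.81 ± 1.43 (SE; edgeR's quasi-likelihood test, adjusted p = 0.802), and it was -0.76 without knockout 2 and 3.32 without control 1. Per kilobase of coding-transcript exon, the level of Rpl7a ran from 16.7 CPM in control 2 and 26.9 in knockout 4 to 959 in knockout 2. Rplp1 was at 7.86, 19.0 and 8.05 in these 3 libraries, so the gap between both genes differed widely from library to library. Only 12.4% of the 30-base words of its transcripts occur in no other annotated gene, so the counting of reads that fit several places could change its level.

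The Rpl7a signal followed the snoRNA content of the library. Over the 7 libraries the log2 of Rpl7a per nuclear protein-coding count rose with the log2 of all snoRNA counts over the same denominator (Pearson r = 0.969, exact permutation p = 0.00159, adjusted over 2 relations 0.00317). Spearman's rho was 0.964 (exact p = 0.00278, adjusted 0.00556). Without control 1 and knockout 2, the libraries farthest from the median, r was 0.930. For the other 75 genes together the same relation gave r = 0.370 (exact p = 0.393, adjusted 0.393), rho = 0.464 (exact p = 0.302, adjusted 0.302) and r = 0.531 without those 2 libraries. Both relations were added to the planned tests with the counts known. Both axes share their denominator, which can by itself make them rise together. The p-values therefore do not measure the link to snoRNAs alone. The groups were pooled, since neither holds enough libraries for a correlation of its own. The difference between both relations was not tested.

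Relative to the snoRNAs, Rpl7a was higher in every knockout than in every control. There were 0.341, 0.277 and 0.263 Rpl7a counts per count of Gm23969 in controls and 0.698, 0.876, 0.898 and 0.963 in knockouts. Per 1000 counts of all snoRNAs, Rpl7a had 3.18, 2.91 and 2.35 counts in controls and 4.46, 6.48, 5.17 and 6.35 in knockouts. Gm23969 itself had 9.33, 10.5 and 8.96 counts per 1000 snoRNA counts in controls and 6.38, 7.40, 5.75 and 6.59 in knockouts. These ratios were chosen after their values were seen and are given without a test.

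**Figure D2:**
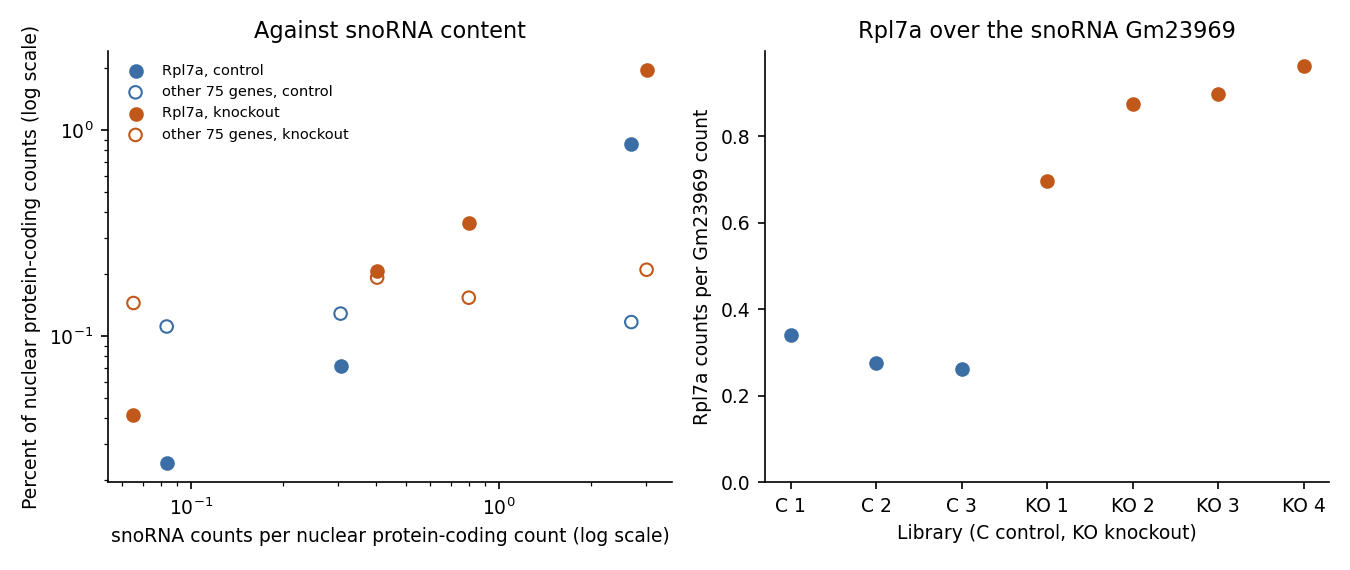
Left, percent of nuclear protein-coding counts (log axis) held by Rpl7a (filled) and by the other 75 genes (open), against snoRNA counts per nuclear protein-coding count (log axis), 1 point per library. Right, Rpl7a counts per Gm23969 count in each library, with the 3 controls between 0.263 and 0.341 and the 4 knockouts between 0.698 and 0.963.

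The place of a snoRNA inside its host went with whether it was counted at all. The 76 genes hold 56 snoRNA features on their own strand, in 29 genes. Exons here are those of GENCODE M21, while the release used for the counting was not given. Of the 30 that overlap an exon of any transcript of the host, 26 (86.7%) had 0 counts, against 2 of 26 (7.69%) between exons. In the other nuclear protein-coding genes 58 of 69 (84.1%) in an exon and 151 of 233 (64.8%) between exons had 0 counts. The snoRNAs between exons of ribosomal protein genes had a median of 716.5 counts. For those in exons, reads could have been left uncounted or given to the host, so their zeros are values of the tables and not a measure of the snoRNAs.

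A host with no exon counts could still hold abundant snoRNAs. Rpl13a had 0 counts, while Snord32a, Snord34 and Snord35a between its exons had 9772, 3082 and 660, and Snord33, which overlaps an exon, had 0. Rpl17 had 0 counts as well, beside 13461, 9504 and 773 at its snoRNAs Gm26202, Gm23301 and Snord58b. The exceptions in exons were 4, led by Gm23130 with 22783 and Snord100 with 1043 counts in Rps12, whose own total was 2. The counts of all 76 genes, hosts or not, were also set against the counts of the snoRNAs inside them. That log2 ratio was -6.56 ± 1.08 in the 3 controls against -5.90 ± 1.002 in the 4 knockouts (SD). The difference was within the spread of the libraries (two-sided exact permutation p = 0.457, adjusted over 8 shares and ratios 0.784). Without Rpl7a the ratio was -7.89 ± 2.49 and -7.53 ± 2.14 (exact permutation p = 0.8).

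Summed over the family, ribosomal protein counts made up 0.974%, 0.136% and 0.201% of nuclear protein-coding counts in controls and 0.510%, 2.17%, 0.401% and 0.187% in knockouts. The means were 0.437 ± 0.466% (SD, n = 3) and 0.816 ± 0.911% (SD, n = 4), and the spread within each group was larger than the difference (two-sided exact permutation p = 0.686, adjusted 0.784). With 3 and 4 libraries this test cannot go below 0.0286. Without knockout 2 the difference turned to -0.0712 percentage points.

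Without Rpl7a the shares were far more even. They were 0.117%, 0.112% and 0.129% in controls and 0.154%, 0.211%, 0.193% and 0.145% in knockouts. Every knockout was above every control, with means of 0.119 ± 0.00884% and 0.176 ± 0.0312% (SD), a ratio of 1.47. The exact permutation test gave p = 0.0571, and 0.343 adjusted over 8 shares and ratios, so the difference did not pass. Single libraries had few counts behind these shares, from 45 in knockout 1 (95% Wilson interval 0.115% to 0.206%) to 274 in knockout 4 (0.129% to 0.163%), and the intervals cover counting error only.

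The denominator includes cardiomyocyte mRNAs, whose marker sum was lower in all knockouts, and their part in these shares was not tested. With the 10 most abundant nuclear protein-coding genes left out, the shares without Rpl7a were 0.151%, 0.158% and 0.167% in controls and 0.175%, 0.249%, 0.219% and 0.172% in knockouts, which still did not overlap (exact permutation p = 0.114). Over all counts not encoded by mitochondrial DNA they overlapped, with means of 0.0335% and 0.0466% (exact permutation p = 0.486). The 45 genes other than Rpl7a that hold no snoRNA or microRNA were at 0.0646%, 0.0574% and 0.0784% in controls and 0.0753%, 0.114%, 0.105% and 0.0822% in knockouts (exact permutation p = 0.143).

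**Figure D3:**
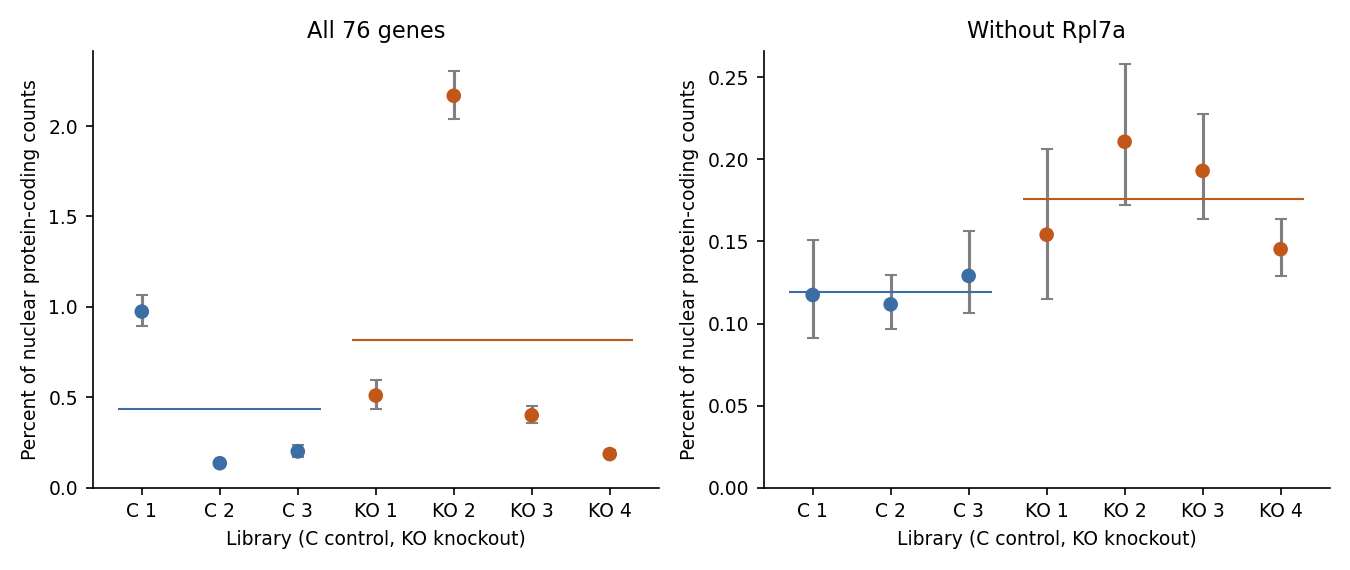
Ribosomal protein counts as a percent of nuclear protein-coding counts in each library, for all 76 genes (left) and without Rpl7a (right). Points are libraries with 95% Wilson intervals and horizontal lines are group means; on the right the controls lie between 0.112% and 0.129% and the knockouts between 0.145% and 0.211%.

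Neither subunit's share passed the test. Small subunit genes held 0.0509%, 0.0562% and 0.0531% of nuclear protein-coding counts in controls and 0.0719%, 0.0919%, 0.0750% and 0.0551% in knockouts. Knockout 4 fell within the control range, and the exact permutation p was 0.0857 (adjusted 0.343). Large subunit genes without Rpl7a held 0.0665%, 0.0555% and 0.0759% in controls and 0.0822%, 0.119%, 0.118% and 0.0901% in knockouts (exact permutation p = 0.0571). The log2 ratio of large to small subunit counts without Rpl7a was 0.30 ± 0.28 in the 3 controls against 0.48 ± 0.24 in the 4 knockouts (SD; exact permutation p = 0.457). With Rpl7a it was 2.06 ± 1.90 and 2.62 ± 1.37 (exact permutation p = 0.600, adjusted 0.784).

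Gene by gene, no ribosomal protein gene was called. The edgeR fit with its default low-count filter tested 1505 genes and called 105 (6.98%) at an adjusted p under 0.05, but only 2 of the 76 had counts enough to enter, Rpl4 and Rpl7a, and neither was called. Of these, 1 had an unadjusted p under 0.05, against 353 of all 1505 genes. With a looser filter of at least 5 counts in total, 41 of the 76 were tested. None was called, against 112 of 10333 genes (1.08%). An unadjusted p under 0.05 was found for 4 of the 41, against 1176 of all 10333. DESeq2, which called 1.19% of all genes, called 0 of the 10 to which it gave an adjusted p. Among the 58 genes with counts, 1 had an unadjusted p under 0.05 there, against 754 of all 15828. In the looser fit 24 of the 41 log2 fold changes were above 0 and 17 below (58.5% above, against 49.1% of all 10333). Their median was 0.49, against -0.02 over all genes, and it was 0.05 without knockout 4, when 30 of the genes were left to test. These 41 entered through their counts, so the median does not stand for the 76.

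**Figure D4:**
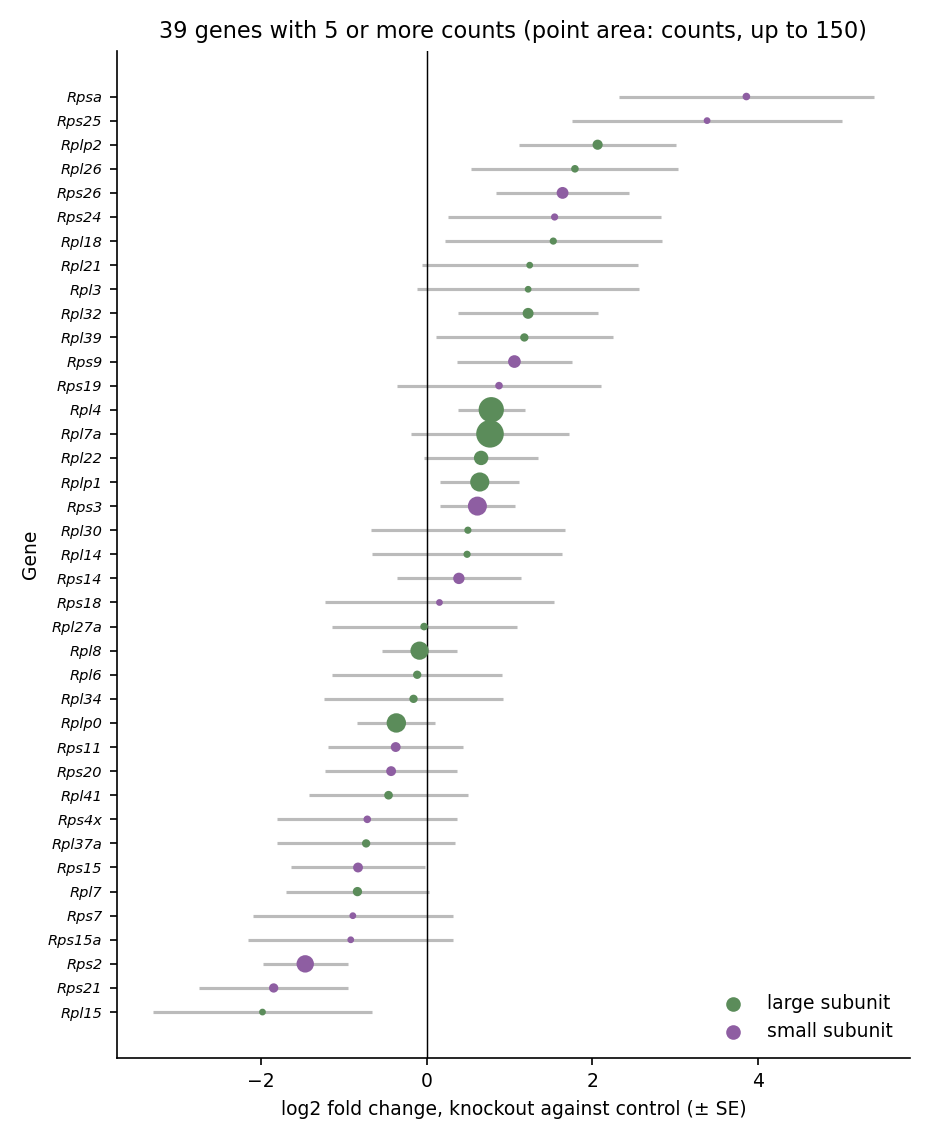
Log2 fold change, knockout against control, of 39 of the 41 ribosomal protein genes with at least 5 counts in total, with the standard error as a bar (edgeR, looser filter). Green points are large and purple points small subunit genes, point area follows the total count up to 150, and 22 of the 39 points lie above 0.

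Rpl4 (ENSMUSG00000032399.8, chr9:64173375-64178666 on the plus strand, GRCm38) encodes a large subunit protein that lines the exit tunnel of the nascent chain. Its levels were 9.06, 7.84 and 6.16 CPM in controls and 13.7, 15.1, 16.5 and 11.7 in knockouts, with every knockout above every control. The log2 fold change was 0.88 ± 0.25 (SE; edgeR, adjusted p = 0.0721). With the microRNA and snoRNA ratio of each library as a covariate it was 0.87 (edgeR, adjusted p = 0.0321), in a fit that called 24.7% of all genes. No other alternative called Rpl4. Its log2 fold change was 0.78 with the looser filter (edgeR, adjusted p = 0.478) and 0.79 with DESeq2 (adjusted p = 0.388). With the replicate number as a block its adjusted p was 0.152 (edgeR). Rpl4 holds 5 snoRNAs on its strand: Gm23344, between exons, had 19891 counts, and Snord16a and Gm22455, which overlap exons of a non-coding transcript, had 0.

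Rps26, Rplp2 and Rps21 were the other genes whose groups did not overlap, named here after their values were seen. Of the 41 genes with at least 5 counts, 3 were higher in every knockout than in every control (7.32%, against 5.81% of all 10333 genes) and 1 was lower (2.44%, against 5.77%). Rps26, a small subunit protein near the mRNA exit, had 1.01, 0 and 2.05 CPM in controls and 4.58, 3.01, 3.303 and 2.21 in knockouts. Rps21, also of the small subunit, had 1.01, 2.35 and 1.37 in controls and 0, 0, 0.661 and 0.631 in knockouts. From 9 and 3 counts, its ratio of knockout to control was 0.263 (exact 95% interval 0.0459 to 1.06, counting error only). These levels rest on few counts, and both adjusted p-values were above the threshold (edgeR, looser filter, 0.441 and 0.438).

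The stalk of the large subunit, made of Rplp0 as its base and the acidic proteins Rplp1 and Rplp2, recruits elongation factors. Rplp0 stood at 6.04, 5.49 and 8.89 CPM in controls and 1.53, 10.04, 3.96 and 5.99 in knockouts, which lay on both sides of the control range. Rplp1 stood at 3.02, 3.92 and 4.79 in controls and 3.05, 4.02, 7.27 and 9.46 in knockouts. Rplp2 had 0, 0.784 and 0 in controls and 1.53, 1.004, 2.64 and 2.21 in knockouts, from 2 and 13 counts, a ratio of 5.14 (exact 95% interval 1.16 to 46.9, counting error only). Their log2 fold changes were -0.37 ± 0.47, 0.64 ± 0.48 and 2.07 ± 0.95 (SE), and none passed (edgeR, looser filter, adjusted p = 0.862, 0.677 and 0.409). Scaled to total counts, the value of Rplp0 became 0.63.

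Among the abundant small subunit genes, Rps3, at the mRNA entry of the ribosome, had 3.02, 6.27 and 2.74 CPM in controls and 10.7, 8.03, 6.61 and 5.68 in knockouts. Knockout 4 lay below control 2, and the log2 fold change was 0.61 ± 0.46 (SE; edgeR, looser filter, adjusted p = 0.679). Rps2, which binds near the entry site as well, had the smallest p of the 41 genes and the other sign. Its levels were 4.03, 9.41 and 6.84 in controls and 3.06, 5.02, 3.303 and 1.26 in knockouts, with 1 knockout inside the control range. Its log2 fold change was -1.47 ± 0.51 (SE; edgeR, looser filter, adjusted p = 0.215), and with the small RNA covariate it was -1.57 (edgeR, adjusted p = 0.0185), in a fit that called 5.48% of all genes.

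Rpl8, a large subunit protein near the peptidyl transferase centre, had 7.05, 4.31 and 5.47 CPM in controls and 4.58, 4.02, 7.93 and 4.73 in knockouts. The groups overlapped, and its log2 fold change was -0.09 ± 0.45 (SE). Rpsa, a small subunit protein that is also known as a laminin receptor, had 0 counts in all controls and 7 in knockouts, at 0, 1.004, 1.32 and 1.26 CPM. The looser edgeR fit gave it an adjusted p of 0.311, and it entered that fit through the knockouts alone.

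**Figure D5:**
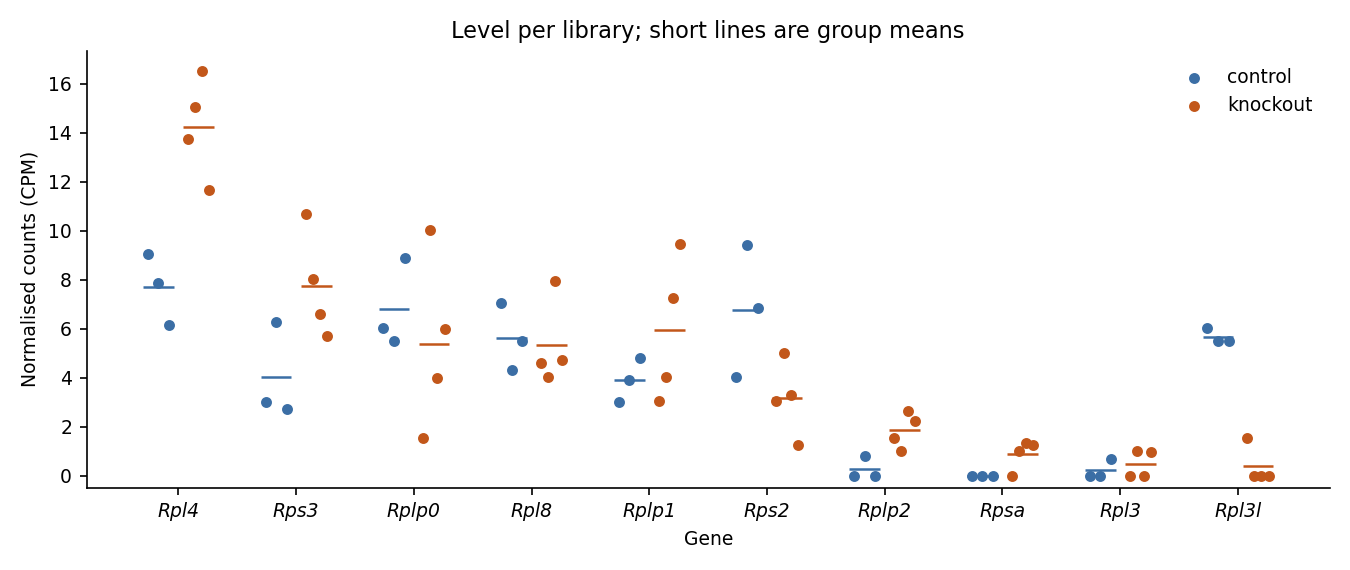
CPM in each library for 9 ribosomal protein genes and the paralog Rpl3l, 1 point per library, with the group mean as a short line. Rpl4 was higher in all 4 knockouts (11.7 to 16.5) than in the 3 controls (6.16 to 9.06), and Rpl3l was at 5.47 to 6.04 in controls and at 0 in 3 knockouts.

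The muscle paralog Rpl3l (ENSMUSG00000002500.15), outside the name rule, fell in knockouts. It replaces Rpl3 in ribosomes of adult heart and skeletal muscle. Rpl3l had 6, 14 and 8 counts in controls, 1 in knockout 1 and 0 in the other 3 knockouts, or 6.04, 5.49 and 5.47 CPM in controls and 1.53, 0, 0 and 0 in knockouts. The controls lay close together in CPM, from few counts each, and the groups did not overlap. From 28 and 1 counts, the control level was 35.4 times that of the knockouts (exact 95% interval 5.86 to 1449, counting error only). It fell below the default filter of edgeR. It was called in the looser fit (adjusted p = 0.00385), where 0.387% of genes were called lower, and by DESeq2 (adjusted p = 0.00130). Rpl3l entered the looser fit through its control counts, as the 1 knockout count would not have passed that filter. Scaled to total counts its log2 fold change was -3.94 and it was not called (edgeR, adjusted p = 0.420), in a fit that called 11 of 10333 genes, 0 of them lower.

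Rpl3, the paralog made in most tissues, had 1 count in controls, in control 3, and 4 in knockouts, 2 of the libraries being at 0 there. The ratio of knockout to control was 3.16 (exact 95% interval 0.313 to 156, counting error only), which does not tell a rise from a fall. Only 30.1% of the 30-base words of Rpl3 occur in no other annotated gene. The marker sums of cardiomyocytes and of white blood cells were lower in all knockouts as well, and their part in the Rpl3l result was not tested. In bulk RNA, fewer cells of a type and less RNA per cell cannot be told apart. Of the other paralogs listed with it, Rpl10l, Rpl39l and Rps27rt had 0 counts, and Rpl7l1 had 7 counts in each group.

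The rest of the cytosolic translation machinery was better covered. A list of 49 initiation and elongation factors and other genes tied to translation was set beside the family, chosen with earlier results known. Of these, 48 had counts and 14 passed the default filter. Among the 14, 2 were called, both higher in knockouts, where 5.25% of all genes were called higher. The log2 fold changes of 13 were above 0, with a median of 0.67, against 0.02 over all genes. With the looser filter 46 were tested and 0 were called, against 112 of all 10333 genes. Their median there was 0.56, beside 0.49 for the 41 ribosomal protein genes tested in that fit.

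Ncl, a nucleolar protein of ribosome assembly, rose from 9.06, 7.45 and 4.79 CPM in controls to 15.3, 28.1, 18.5 and 18.3 in knockouts. Its log2 fold change was 1.50 ± 0.32 (SE; edgeR, adjusted p = 0.0366), and it was called by DESeq2 as well (adjusted p = 0.0284). Of the 3 snoRNAs inside Ncl, 2 overlap an exon and had 0 counts, while Snord82, between exons, had 3251 in all. The part of these snoRNAs in the level of Ncl was not tested. Eif3a, the largest subunit of initiation factor 3, rose from 13.1, 12.6 and 15.7 CPM to 27.5, 37.1, 25.1 and 34.1, and its log2 fold change of 1.17 ± 0.26 (SE) had an adjusted p of 0.0400 (edgeR). DESeq2 did not call it (adjusted p = 0.0665). With the looser filter neither Ncl nor Eif3a was called (edgeR, adjusted p = 0.137 and 0.321). Without any 1 of the 3 controls, or without knockout 2 or 3, neither was called (edgeR, adjusted p between 0.0581 and 0.257), with log2 fold changes of 1.15 to 1.58 for Ncl and 0.93 to 1.29 for Eif3a. Without knockout 1 Eif3a was not called either (1.197, adjusted p = 0.0538).

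The most abundant of the list were not called. Naca, of the complex that binds nascent chains at the ribosome, had 74.5, 71.0 and 58.2 CPM in controls and 85.5, 136, 139 and 167 in knockouts (edgeR, log2 fold change 0.96, adjusted p = 0.208). Eef2, which moves the ribosome along the mRNA, had 43.3, 52.9 and 45.2 in controls and 42.8, 57.2, 62.1 and 73.2 in knockouts (0.32, adjusted p = 0.610). Eef1a2, the elongation factor of muscle and neurons, was the one below 0, at 60.4, 60.8 and 51.3 in controls and 24.4, 29.1, 41.6 and 50.1 in knockouts (edgeR, -0.65, adjusted p = 0.302). Its groups did not overlap, and scaled to total counts its value was 0.53.

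Set against this list within each library, ribosomal protein counts did not shift beyond the spread. That log2 ratio was -1.21 ± 1.38 in the 3 controls against -1.12 ± 1.39 in the 4 knockouts (SD; exact permutation p = 0.914, adjusted 0.914). Without Rpl7a it was -2.54 ± 0.19 and -2.74 ± 0.13 (exact permutation p = 0.200), so the sign of the difference turned. Against the 78 proteins of the mitochondrial ribosome, which is built from separate nuclear genes, the log2 ratio was 0.24 ± 1.25 among controls against 0.87 ± 1.37 among knockouts (SD; exact permutation p = 0.629, adjusted 0.784). Without Rpl7a it was -1.09 ± 0.27 and -0.76 ± 0.27 (exact permutation p = 0.171).

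The family has many near-identical copies in the genome. The median share of a gene's 30-base words found in no other annotated gene was 53.7% over the 76 genes, from 0.872% to 97.6%. It was 53.9% for the 18 genes at 0 counts, 34.5% for the 17 with 1 to 4 and 54.8% for the 41 with 5 or more. The 267 processed pseudogenes named as copies of these genes drew 163 counts in all, at 35 features. How reads that fit several places were counted was not given in the sources used here, so the level of genes with many copies is uncertain.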

How the data were processed

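Small RNA libraries of crude heart mitochondria from 3 control and 4 knockout mice were analysed, as labelled. The design text names 4 control mice, and 3 control libraries were analysed here. Whole-number raw counts per feature were deposited by the authors. The submitters' processing notes list featureCounts, bedtools, DESeq2 1.14.1 under R 3.3.2, Bowtie2, cutadapt 1.10 and SAMtools 1.3.1, and the build mm10, with no role for each. Strand setting, annotation release and the handling of reads that fit several places were not given in the sources used here. A normalised signal, also deposited, is each raw count over a library's own factor (0.496 to 2.65) and served as a check. The authors' deposited comparison table holds a mean signal, log2 fold changes, a test score and p-values, per the file headers; only its names and types were used.

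Genes were tested with edgeR 4.0.16 (R 4.3.3; TMM, quasi-likelihood test, default filter with a minimum count of 10) and Benjamini-Hochberg adjustment over all genes tested. Genes too low for that filter are reported from a fit of features with at least 5 counts in total. For shares of counts and log2 ratios an exact permutation test, two-sided, went through all 35 splits (scipy 1.17.1), and its p was adjusted over 8. Whether the libraries are biological replicates rests on the design text, so p-values measure the spread between these libraries. Positions and transcripts are from GENCODE M21 (GRCm38), to which all 76 genes matched, 58 with the same version. The members, lists and tests were chosen with earlier results of these data known. Genes were named by rule: members called, the 8 most abundant, the tested members with the highest and lowest log2 fold change (at most 5 each), the stalk proteins and Rpsa, Rpl3 with Rpl3l, and called or abundant members of the translation list. Genes left out of the text and plots, 2 of the 41 tested members among them, were kept in all sums and fits. The code was tested on simulated data. Alternatives were other scalings, filters and denominators, DESeq2 1.42.0, a small RNA covariate, the replicate number as a block, and each library left out. The share without Rpl7a was listed as an alternative of the family's share and was made a result of its own after the data were seen, when its alternatives and repeats of the looser fit were added.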

Additional observations from a re-analysis of the deposited data

Results flagged for a closer look

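In 4 of 24 groups of knockout values examined, 1 library lay far from the other 3, where chance gives about 1 group in 20. Knockout 2 was the library in 3 of them, which are not independent, as all hold Rpl7a: the ribosomal protein share of nuclear protein-coding counts was 2.17%, the large subunit share was 2.08%, and Rpl7a stood at 876 CPM. Knockout 2 also had the highest snoRNA counts per nuclear protein-coding count, 3.02. In the last, knockout 1 held the single Rpl3l count among the knockouts, which equals 1.53 CPM. The remaining values of that group are tied at 0, so the rate of 1 in 20 does not apply to it. The 4 flags therefore do not show an excess over that rate.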

How the results depend on the processing

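Differences below are knockout minus control. With 1 library left out at a time, the difference in the ribosomal protein share was between -0.0712 and 0.648 percentage points. For the large subunit share the difference was between -0.0851 and 0.629, for the small subunit share between 0.0139 and 0.0262, and for the share without Rpl7a between 0.0447 and 0.0665. On the log2 scale the ranges were -0.21 to 1.63 for large to small subunit counts, -0.52 to 0.87 against the translation list, -0.018 to 1.35 against mitochondrial ribosomal proteins and 0.17 to 1.24 against snoRNAs. Against the translation list the difference was also -0.21 without Rpl7a and -0.27 as a mean of log2 values over genes. Ribosomal protein genes called ranged from 0 to 0 over left-out libraries with either filter. The small RNA covariate gave 1 call with the default filter (Rpl4) and 1 with the looser one (Rps2). The median of the looser fit was 1.26 scaled to total counts, 0.18 with the replicate block and 0.050 to 0.47 over left-out libraries. Scaling to total counts moved the median of all genes to 0.93 with the default and 0.90 with the looser filter.

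Translation genes called numbered 2, in a fit that called 105 of 1505 genes. They were 0 scaled to total counts (8 of 1505 genes called), with the looser filter (112 of 10333), with no filter (192 of 15828) and with the replicate block (0 of 1505). DESeq2 gave 1 (189 of 15828 genes called), nuclear protein-coding scaling 4 (119 of 1505) and the covariate 6 (371 of 1505). Over left-out libraries they were 0 to 2, in fits that called between 0 of 2250 and 75 of 1628 genes. Pairing by replicate number was not shown: the correlation of deviations was 0.53, -0.80 and 0.32 for numbers 1 to 3. It was 0.87 for control 2 with knockout 4 and 0.78 for control 1 with knockout 2. With so few libraries these correlations cannot tell whether the numbers mark pairs. With the number as a block edgeR called 0 of 1505 genes (338 at an unadjusted p under 0.05). The looser fit with the block called 188 of 10333 genes, 90 of them lower, and Rpl3l had an adjusted p of 0.0151 there.

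Of 224 values of 16 named genes under alternatives, 193 kept direction and side of the threshold, 21 lost and 3 gained a call, and 7 turned sign. None of these 7 was called. They were Rplp0, Rpl8 and Eef1a2 scaled to total counts (0.63, 0.90 and 0.53), Rpl7a without knockout 2, and Rpl8 without control 1 (0.027), knockout 2 (0.019) or knockout 4. Over left-out libraries Rpl7a ranged from -0.76 to 3.32 and Rpl8 from -0.40 to 0.059. The causes were not tested. Depth is a limit: 35 of 76 genes had fewer than 5 counts in all 7 libraries together.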
